A study of Mus musculus with 12 samples.

Results

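The genes described here are 40 genes that proliferating cells use to copy and divide their chromosomes, measured in mouse osteoclast cultures. They were taken by name, as 18 genes of DNA replication (S phase) and 22 genes of mitosis, with earlier results of these data known. They are 40 of the 55414 gene IDs counted in each library. Each had a single ID in the GENCODE M21 annotation, each is protein coding, and all 40 passed the filter on low counts, and the counts of single genes in single libraries ran from 212 (Prim1) to 8187 (Mki67).

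The cells were osteoclasts, the multinucleated cells that resorb bone, grown from the bone marrow of male mice aged 7 to 8 weeks, with sex-matched littermates as controls per the design text. Marrow macrophages were first expanded with the growth factor M-CSF (30 ng/ml), and the osteoclast-inducing cytokine RANKL was added on day 3 and kept for 4 days. The 12 libraries form 4 groups of 3 that cross a pair of genotypes: wild type Hes1 loxP, Notch2 mutant Hes1 loxP, wild type Hes1 deletion and Notch2 mutant Hes1 deletion. All 4 groups shared the same culture protocol, and every group is labelled with an engineered Hes1 allele, flanked by loxP sites or deleted. The labels do not name the Notch2 mutation, the promoter that drove any recombinase or how the Hes1 deletion was made. They call the 3 libraries of a group biological replicates and do not tie them to single animals.

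Osteoclasts form when dividing macrophage precursors leave the cell cycle and fuse, and a mature osteoclast no longer divides. In a dividing cell, Cdc6 and Cdt1 load the ring of MCM proteins onto DNA in G1, and cyclin E and E2F factors then start S phase, in which the polymerases copy DNA around the sliding clamp Pcna. Cyclin B with Cdk1 starts mitosis, Aurora and Polo kinases and the kinesins build the spindle, and Cdc20 activates the ubiquitin ligase that lets chromatids part. E2F factors drive many replication genes, and the DREAM and Foxm1 complexes act on many mitosis genes through the CHR element. Promoters of mitosis genes often hold CCAAT boxes as well.

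Promoter sequence was read for the members with an entry in the RefSeq promoter table (GRCm38.p6), each entry holding 250 bases before and 50 bases after an annotated start. Entries were found for 31 of the 40 genes, 14 of replication and 17 of mitosis, and none for Aurkb, Mcm4, Gins2, Foxm1, Ccna2, Kif20a, Ccne2, Pole and Tpx2. The motifs were searched on both strands: E2F, spelled TTTCCCGC, TTTCGCGC, TTTGCCGC or TTTGGCGC, CHR, spelled TTTGAA or TTCGAA, and CCAAT. An E2F word was found in 6 of 14 replication promoters (42.9%), in 1 of 17 mitosis promoters (5.88%, Cdk1) and in 704 of the 27025 genes with a promoter entry (2.60%). A CHR word was found in 2 of 14 replication promoters (14.3%), in 13 of 17 mitosis promoters (76.5%) and in 21.7% of all genes. CCAAT was found in 9 of 14 (64.3%), 15 of 17 (88.2%) and 41.1%, in the same order. These matches describe letters in a window and are not evidence that a factor binds there.

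The 4 stretches below are shown because the genes lead the comparisons that follow and because they hold the contrast between the promoter classes. They are written 5′ to 3′ on the strand of the gene, with matched letters in capitals: Cdc6 from chr11:98908001-98908030 (plus strand), Mcm5 from chr8:75109349-75109508 (plus strand), Cdk1 from chr10:69352913-69353052 (minus strand) and Cdc20 from chr4:118437344-118437403 (minus strand), all GRCm38.
Cdc6: ggccggtggagaGCGGGAAAtcgcctgggg
Mcm5: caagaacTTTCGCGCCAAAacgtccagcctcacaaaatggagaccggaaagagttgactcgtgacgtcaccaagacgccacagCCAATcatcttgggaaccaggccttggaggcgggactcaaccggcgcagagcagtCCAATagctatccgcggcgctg
Cdk1: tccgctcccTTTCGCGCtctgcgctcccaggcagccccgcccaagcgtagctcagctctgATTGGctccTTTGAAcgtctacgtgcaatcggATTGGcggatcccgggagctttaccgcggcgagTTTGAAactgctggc
Cdc20: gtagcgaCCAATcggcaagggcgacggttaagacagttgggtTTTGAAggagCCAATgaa
Cdc6 shows a single E2F word read from the opposite strand, and Mcm5 opens with E2F words on both strands that overlap (TTTCGCGC and the complement of TTTGGCGC), followed by CCAAT. Cdk1 holds an E2F word upstream of CCAAT on the opposite strand and CHR, and Cdc20 holds CCAAT and CHR with no E2F word.

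Each library held 13832368 to 19293772 counts assigned to genes. Hes1 was nearly silent in all 4 groups, with 23 counts summed over the wild type Hes1 loxP libraries, 7 over the Notch2 mutant Hes1 loxP libraries and 2 over each of the Hes1 deletion groups, too few to check single libraries against their labels. Notch2 was counted in all groups (156 to 169 CPM on average), and a gene count does not show whether its allele is mutant. All 12 osteoclast markers were detected in every library (the lowest, Calcr, at a median of 28.0 CPM), and lymphocyte markers summed to at most 5.77 CPM. The replicate 3 libraries of wild type Hes1 deletion and of Notch2 mutant Hes1 loxP stood apart for the genes described here: the first was the highest of all 12 libraries for 29 of the 40 genes and the second was the lowest for 26.

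Both gene sets were clearly expressed in the cultures. Levels are given here as the usual depth-scaled count (CPM, scaled to the total assigned to genes), divided by the length of the longest coding mRNA in kilobases when genes are compared with each other. Among replication genes, the mean over 12 libraries ran from 5.63 CPM per kb (Gins2, a subunit of the active helicase) to 112 CPM per kb (Pcna), with a median of 32.8. Among mitosis genes it ran from 4.72 CPM per kb (Cenpf, an outer kinetochore protein) to 64.7 CPM per kb (Top2a, the topoisomerase that untangles chromosomes), with a median of 29.0. The level of Gins2 is uncertain, because Gse1 lies antisense over 2758 bases of its exons and the strand setting of the counting is not stated. The spread over the 12 libraries was small: the coefficient of variation of CPM was 4.84% (Cdt1) to 14.6% (Pole) for replication genes and 5.55% (Ccnb2) to 13.6% (Cenpf) for mitosis genes. In these bulk cultures, fewer cycling cells and less RNA per cell cannot be told apart.

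**Figure D1:**
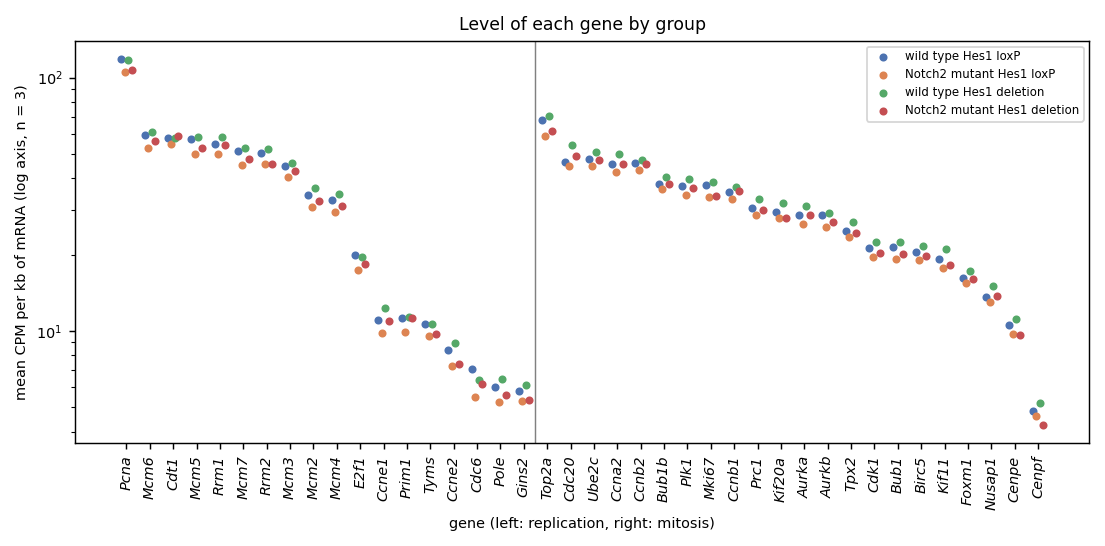
Mean level of each of the 40 genes in the 4 groups, in CPM per kb of mRNA on a log axis (each point is the mean of 3 libraries), with genes ordered by level within each set. Pcna (112 CPM per kb over all libraries) stands above all other genes, Gins2 and Cenpf lie lowest in their sets, and the 4 groups lie close together for every gene.

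The commonly used proliferation markers show the size of the between-library spread. Mki67, a protein that coats mitotic chromosomes, stood at 354, 424 and 362 CPM in the wild type Hes1 loxP libraries and at 331, 414 and 276 CPM in the Notch2 mutant Hes1 loxP libraries. In Hes1 deletion cells it stood at 372, 367 and 426 CPM in wild type and 331, 376 and 318 CPM in Notch2 mutant libraries. The groups overlapped for Mki67 in every comparison. Pcna, the sliding clamp, was tighter, at 178, 186 and 175 CPM in wild type Hes1 loxP and 159, 166 and 155 CPM in Notch2 mutant Hes1 loxP libraries, and these groups did not overlap. Among Hes1 deletion libraries, Pcna stood at 174, 171 and 191 CPM in wild type and 154, 174 and 159.9 CPM in Notch2 mutant libraries, which did overlap.

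**Figure D2:**
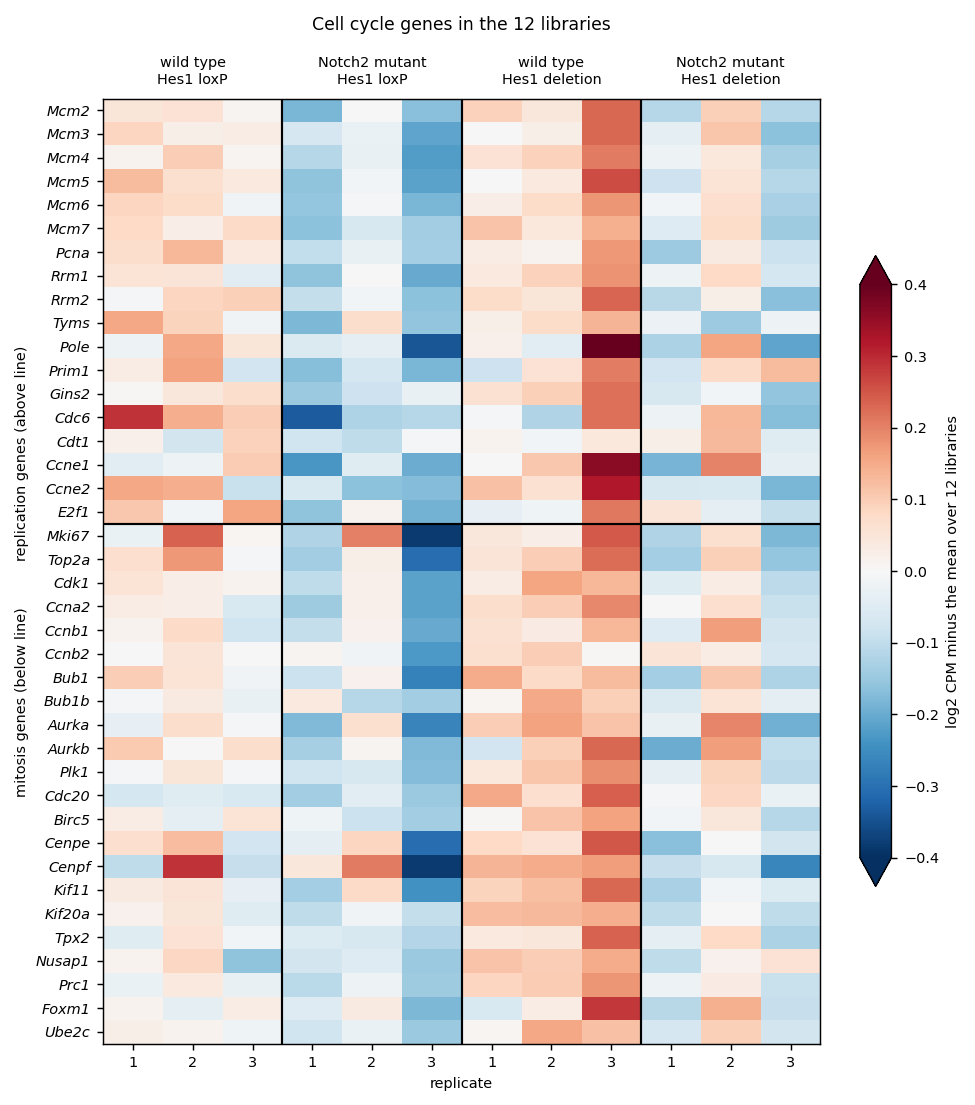
Log2 CPM of each gene minus its mean over the 12 libraries (color, red higher and blue lower), with genes in rows and the 3 replicates of each group in columns. The column of wild type Hes1 deletion replicate 3 is red for most genes (highest for 29 of 40) and that of Notch2 mutant Hes1 loxP replicate 3 is blue for most (lowest for 26 of 40).

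With Hes1 loxP, the Notch2 mutant cultures had slightly lower values than wild type for all of these genes, more so for replication than for mitosis, and the differences were small. All 40 genes had a negative log2 fold change (mutant against wild type), against 49.1% of the 13403 genes tested. The median was -0.14 for replication genes and -0.07 for mitosis genes, with 0.00 for all genes tested. No gene of the 40 passed the test (edgeR, adjusted p under 0.05), where 0.776% of all genes tested did, and DESeq2 and limma-voom also called 0 of the 40. At an unadjusted p under 0.05 there were 12 of the 40, 11 of replication and 1 of mitosis (Top2a), against 14.2% of all genes. The 3 mutant libraries were all below the 3 wild type libraries for 11 replication genes and 3 mitosis genes, against 11.1% of all genes, and no member had all mutant libraries higher, against 7.2% of all genes. A negative direction for all 26 genes of a shorter cell cycle list was already known for this comparison, so the direction here is not independent of it. Many of the 40 genes also moved together by library, so a count of genes is not a count of independent observations.

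Cdc6, Mcm7 and Mcm5 had the smallest p of the replication genes. Cdc6, which loads the MCM ring onto DNA, stood at 35.1, 31.8 and 30.8 CPM in wild type and at 22.8, 26.4 and 26.5 CPM in Notch2 mutant libraries. Every mutant library was below every wild type library. Its means were 32.5 ± 2.27 and 25.2 ± 2.12 CPM (SD, n = 3 each). The log2 fold change of Cdc6 was -0.34 ± 0.09 (SE), the lowest of the 40, with an edgeR adjusted p of 0.0978. Its 95% interval was -0.53 to -0.14. Cdc6 passed the test when wild type Hes1 deletion replicate 3 was left out (adjusted p = 0.0446, edgeR), and 289 of 13661 genes passed then. That library is in neither group compared. It enters through the count filter, the scaling, the shared spread and the adjustment of p. Without the count filter Cdc6, Mcm5 and Top2a passed (edgeR adjusted p = 0.00417, 0.0325 and 0.00843). That setting called 657 of 25080 genes, against 104 of 13403 in the main fit.

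The MCM subunits had smaller differences, close to each other. Mcm5 stood at 200.3, 192 and 188 CPM in wild type and 164, 182 and 158 CPM in Notch2 mutant libraries. Mcm7 stood at 154, 148 and 154 CPM in wild type and 129.9, 139 and 132 CPM in Notch2 mutant libraries. For both genes the groups did not overlap, and the log2 fold changes were -0.18 ± 0.06 (adjusted p = 0.191, edgeR) and -0.16 ± 0.05 (adjusted p = 0.157, edgeR). Over the 6 MCM genes the log2 fold changes ran from -0.18 to -0.12, and the groups did not overlap for 5 of the 6. Cops6 and Ap4m1 lie antisense over exons of Mcm7, and no source used here states the strand setting of the counting. The count of Mcm7 over these exons is therefore uncertain, as for each of the 11 members with an antisense gene over an exon.

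Pcna had a log2 fold change of -0.15 ± 0.05 (adjusted p = 0.203, edgeR). The subunits of ribonucleotide reductase, Rrm1 and Rrm2, which make deoxynucleotides, had -0.12 ± 0.05 and -0.13 ± 0.06. E2f1, a transcription factor of S phase entry, stood at 55.7, 51.3 and 57.7 CPM in wild type and 46.2, 52.2 and 45.3 CPM in Notch2 mutant libraries. Those groups overlapped through mutant replicate 2, and the log2 fold change was -0.17 ± 0.07. Cdt1, the partner of Cdc6 in loading, had the smallest difference of the replication set, at -0.05 ± 0.05, from 127, 119 and 134 CPM to 119, 117 and 125 CPM.

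Mitosis genes showed smaller values in the same comparison. Top2a stood at 352, 379 and 335 CPM in wild type and 305, 342 and 272 CPM in Notch2 mutant libraries. Mutant replicate 3 was lowest and mutant replicate 2 lay inside the wild type range. Its log2 fold change was -0.19 ± 0.07 with an edgeR adjusted p of 0.239. Bub1, a kinase of the spindle checkpoint, stood at 75.9, 73.6 and 70.2 CPM in wild type and 66.8, 71.7 and 58.8 CPM in Notch2 mutant libraries, with a log2 fold change of -0.13 ± 0.07. Cdk1 stood at 94.6, 92.7 and 91.9 CPM in wild type and 84.8, 92.4 and 78.5 CPM in Notch2 mutant libraries, with -0.10 ± 0.06. The groups overlapped for Top2a, Bub1 and Cdk1. The 8 genes of kinetochore, spindle and midzone had a median of -0.06, and Foxm1, the transcription factor of mitotic genes, had -0.04 ± 0.08 from 75.8, 73.0 and 76.6 CPM to 72.4, 76.9 and 66.2 CPM. The 95% intervals of the 40 genes lay between -0.53 and 0.19, that is between 0.692-fold and 1.14-fold, so no interval reached beyond these folds. Without Notch2 mutant replicate 3 the mitosis median was -0.04, and without Notch2 mutant replicate 2 or wild type replicate 3 it was -0.12, while the replication median stayed between -0.19 and -0.12 with any library left out.

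With the Hes1 deletion in both groups, the Notch2 mutant cultures again had lower values for nearly all of these genes, and here mitosis genes had values as low as replication genes. The log2 fold change was negative for 39 of the 40 genes, against 49.4% of all genes tested, with Cdt1 (0.03 ± 0.05) as the exception. The medians were -0.13 for replication and -0.12 for mitosis genes. No gene of the 40 passed the test (edgeR), where 0.0149% of all genes did, and DESeq2 and limma-voom called 0 of the 40. At an unadjusted p under 0.05 there were 19 of the 40, 8 of replication and 11 of mitosis, against 6.69% of all genes. The mutant libraries were all lower for 5 replication genes and 8 mitosis genes, against 7.48% of all genes, and all higher for none, against 4.9% of all genes. This comparison shares no library with the one in Hes1 loxP cells, although both came from 1 fit. In both comparisons 39 of the 40 genes were negative, against 30.5% of all genes tested. Many of the 40 genes moved together by library, however. Wild type Hes1 deletion replicate 3 was highest of its group for 34 of them. Notch2 mutant Hes1 loxP replicate 3 was lowest of its group for 32. In wild type Hes1 loxP cells this was weaker, with replicate 2 highest for 20. The 39 genes are therefore not independent observations, and each comparison rests on groups of 3 libraries.

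Kif20a, Kif11 and Prc1 had the smallest p of the mitosis genes. Kif20a, a kinesin of the midzone that acts in cytokinesis, stood at 117, 118 and 119 CPM in wild type and 100.05, 107 and 100.1 CPM in Notch2 mutant libraries. The groups were well apart, and the log2 fold change was -0.19 ± 0.05 (edgeR unadjusted p = 0.000648, adjusted p = 0.349). Cdc23 lies antisense over an exon of Kif20a, and Rccd1 over an exon of Prc1, so both counts are uncertain there. Kif11, the kinesin that pushes spindle poles apart, stood at 97.2, 99.4 and 107 CPM in wild type and 83.4, 90.7 and 87.9 CPM in Notch2 mutant libraries, with -0.20 ± 0.06 (adjusted p = 0.628, edgeR). Prc1, which bundles midzone microtubules, stood at 98.3, 99.3 and 105 CPM and 91.3, 94.6 and 87.1 CPM in the same order, with -0.13 ± 0.05. The groups did not overlap for Kif11 or Prc1. Cenpf stood at 57.3, 57.8 and 58.5 CPM in wild type and 48.9, 49.9 and 43.5 CPM in mutant libraries. It had the lowest value of the 40 (-0.27 ± 0.12), and its groups did not overlap either. It passed the test only when the count filter was omitted (edgeR adjusted p = 0.0151). That setting called 138 of 25080 genes here, against 2 of 13403 in the main fit. The 8 genes of kinetochore, spindle and midzone had a median of -0.16, and the groups did not overlap for 6 of them.

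Rrm2 and Ccne2 had the smallest p of the replication genes in the Hes1 deletion cells. Rrm2 stood at 111, 109 and 124 CPM in wild type and 98.1, 108 and 94.4 CPM in Notch2 mutant libraries, with a log2 fold change of -0.19 ± 0.06 (adjusted p = 0.628, edgeR). Ccne2, a cyclin E that starts S phase, stood at 25.9, 24.9 and 29.8 CPM in wild type and 22.8, 22.9 and 21.1 CPM in Notch2 mutant libraries, with -0.26 ± 0.08. The groups did not overlap for Rrm2 or Ccne2. Gins2 stood at 22.9, 23.4 and 25.5 CPM in wild type and 20.9, 21.7 and 19.6 CPM in Notch2 mutant libraries, with -0.19 ± 0.07 and no overlap. Gse1 lies antisense over 2758 bases of Gins2 exons and Ints8 over 609 bases of Ccne2 exons, so both counts are uncertain. The 6 MCM genes had a median of -0.13 and the groups did not overlap for 1 of them. Cdc6, the leading gene with Hes1 loxP, stood here at 28.5, 26.4 and 33.5 CPM in wild type and 28.3, 31.5 and 25.5 CPM in Notch2 mutant libraries, a log2 fold change of -0.04 ± 0.09 with overlapping groups. Prim1 had 0.00 ± 0.09 here against -0.16 ± 0.09 with Hes1 loxP. The 95% intervals of the 40 genes lay between -0.52 and 0.19 (0.698-fold to 1.14-fold). Mcm5 stood at 183, 189 and 219.7 CPM in wild type and 173, 190.4 and 169.7 CPM in Notch2 mutant libraries, and Mcm7 at 157, 149.6 and 160.5 CPM and 140.2, 153 and 132 CPM. Top2a stood at 349, 360.2 and 393 CPM and 306, 359 and 302 CPM, and Bub1 at 78.5, 74.8 and 77.4 CPM and 64.6, 76.4 and 65.1 CPM. The groups overlapped for these 4 genes through Notch2 mutant replicate 2, which was the highest of its group for 35 of the 40 genes. Cdk1 stood at 93.0, 102 and 99.9 CPM in wild type and 88.1, 92.9 and 84.8 CPM in mutant libraries, with no overlap. The regulators overlapped: E2f1 stood at 50.5, 51.1 and 59.8 CPM and 53.6, 50.4 and 48.4 CPM (-0.07 ± 0.07), and Foxm1 at 71.9, 76.7 and 91.4 CPM and 69.4, 82.7 and 70.4 CPM (-0.09 ± 0.08). Cdt1 was nearly level, at 127, 124 and 129 CPM and 127, 137 and 121 CPM.

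Read back in the Hes1 loxP groups, the genes that lead with the deletion had negative values there too, smaller in size. All 40 genes were negative with Hes1 loxP, so the sign is not a separate result. These genes were picked for their values with the deletion, so the smaller size is not a separate result either. The interaction of the genotypes did not pass the test for any of them. Kif20a stood at 109, 111 and 104 CPM in wild type and 100.1, 106 and 100.6 CPM in Notch2 mutant Hes1 loxP libraries. Kif11 stood at 93.6, 94.7 and 89.3 CPM against 83.2, 96.3 and 77.2 CPM, and Prc1 at 90.8, 95.005 and 90.7 CPM against 86.0, 91.2 and 83.9 CPM. Cenpf stood at 48.6, 63.6 and 48.9 CPM against 53.7, 60.2 and 39.9 CPM, and its log2 fold change of -0.05 ± 0.12 turned positive (0.10) without wild type replicate 2 or without Notch2 mutant replicate 3. The groups overlapped for these 4 genes. Rrm2 stood at 106, 112 and 113 CPM against 99.0, 105 and 94.5 CPM, and Gins2 at 21.99, 22.6 and 23.0 CPM against 19.7, 20.7 and 21.4 CPM, both with no overlap. Ccne2 stood at 26.6, 26.4 and 22.5 CPM against 22.9, 21.3 and 21.2 CPM, and its groups overlapped.

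In the Hes1 deletion groups, without wild type replicate 3, the library that was highest for most of these genes, the replication median was -0.07, the mitosis median was -0.10 and 35 of the 40 genes were negative. Cdc6, E2f1, Foxm1 and Prim1 were among those that turned positive.

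**Figure D3:**
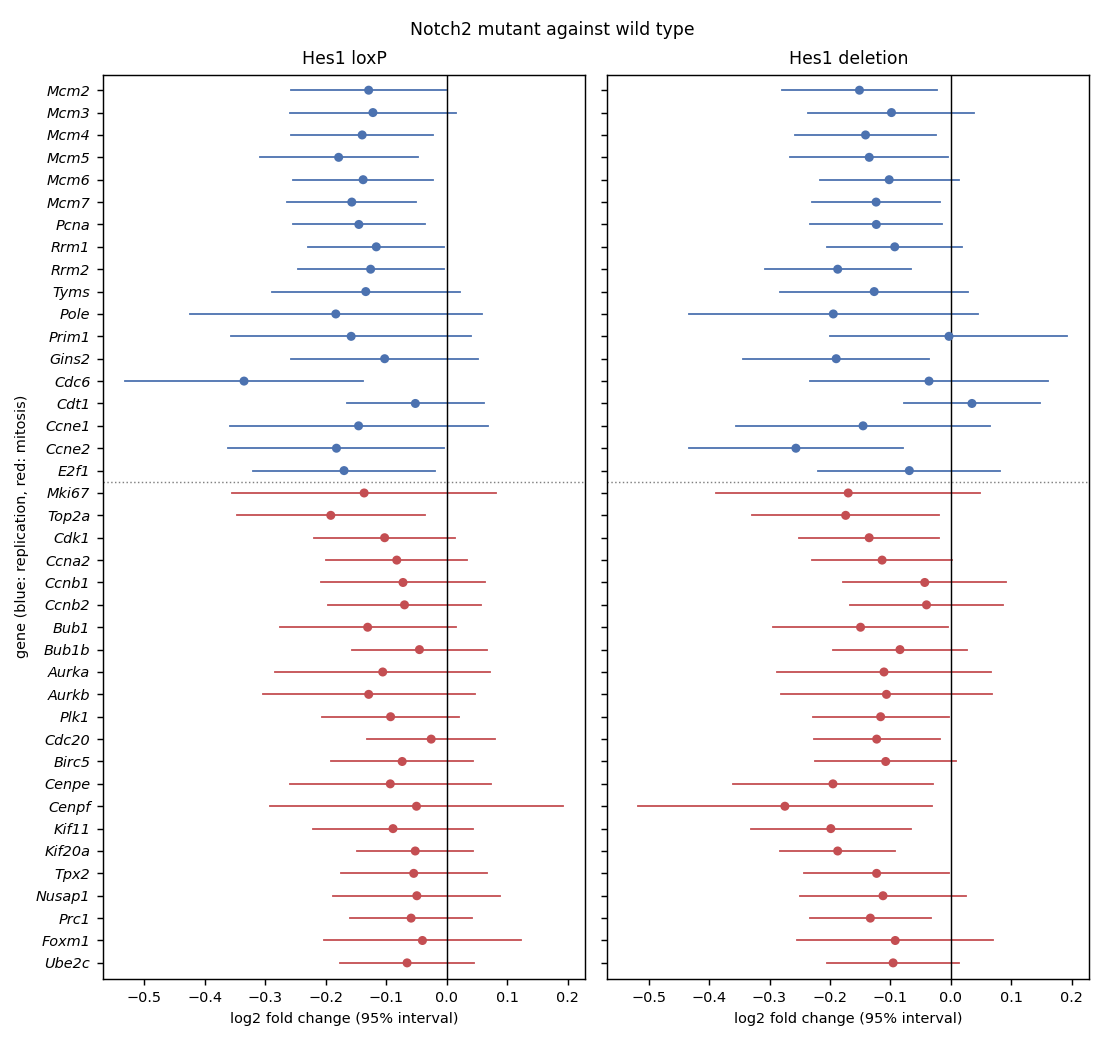
Log2 fold change of each gene in Notch2 mutant against wild type cultures, with Hes1 loxP (left) and with the Hes1 deletion (right). Points are edgeR estimates and bars are 95% intervals, with replication genes in blue and mitosis genes in red. All 40 points on the left and 39 of 40 on the right lie below 0, and most bars of mitosis genes cross 0 on the left.

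Summed over its genes, each set had lower mean values in the Notch2 mutant cultures, and the summed osteoclast markers had higher ones. The 18 replication genes summed to 1861 ± 25.8 CPM in wild type and 1661 ± 86.4 CPM in Notch2 mutant Hes1 loxP libraries (SD, n = 3), a difference of -10.7% with no overlap. In Hes1 deletion libraries they summed to 1915 ± 124 CPM and 1755 ± 112 CPM, a difference of -8.38% with overlap. The 22 mitosis genes summed to 2446 ± 98.8 CPM and 2247 ± 205 CPM with Hes1 loxP (-8.11%). Those with the deletion summed to 2592 ± 124 CPM and 2333 ± 158 CPM (-9.996%). The groups overlapped in both mitosis comparisons. The ratio of the mitosis sum to the replication sum was between 1.31 and 1.35 in the 4 group means, so the sets kept nearly the same proportion. No test was made of these sums. CPM here, in sums and in overlaps of groups, lacks the further scaling between libraries used in the edgeR fit. In both Notch2 comparisons it placed the mutant somewhat lower against wild type than edgeR did, so these percentages are not on the scale of the fold changes.

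Summed markers of cell identity differed between the same groups. The 11 osteoclast markers other than Ctsk summed to 31958 to 34953 CPM in wild type and 37675 to 41879 CPM in Notch2 mutant Hes1 loxP libraries, 20.4% higher on average with no overlap. Mmp9 and Acp5 made up 81.3% of the wild type sum, while Calcr had a log2 fold change of 0.02 and Itgb3 one of -0.04. Among Hes1 deletion libraries these markers summed to 29320 to 34759 CPM in wild type and 35003 to 39024 CPM in Notch2 mutant libraries, 13.1% higher with no overlap. Ctsk, an osteoclast protease, was left out of these sums because its level stood lower in both Hes1 deletion groups (4586 and 5048 CPM on average) than in both Hes1 loxP groups (9026 and 10631 CPM). The 3 libraries with the highest osteoclast sums (replicates 1 and 3 of Notch2 mutant Hes1 loxP and replicate 3 of Notch2 mutant Hes1 deletion) were also the 3 with the lowest replication and the lowest mitosis sums. The 14 macrophage and monocyte markers summed 8.76% lower in the Notch2 mutant with Hes1 loxP (no overlap) and 0.54% lower with the Hes1 deletion (overlap). Lyz2 made up 55.3% of the wild type sum with Hes1 loxP, and the members went both ways: Fcgr1 (log2 fold change -0.83), Mrc1 (-0.59), Msr1 (-0.47) and Adgre1 (-0.42) had lower values in the mutant, and Cx3cr1 (0.23), Cd68 (0.15), Csf1r (0.12) and Ccr2 (0.12) had higher ones. The 14 stromal and osteoblast markers averaged 273 CPM summed for wild type against 188 CPM for Notch2 mutant with Hes1 loxP (-31.0%), and 343 against 246 CPM with the Hes1 deletion (-28.2%), with no overlap in either. With Hes1 loxP, the sums were also lower without overlap for neutrophil and progenitor (-20.3%), erythroid, mast cell and megakaryocyte (-36.3%) and endothelial markers (-34.9%), and these overlapped with the Hes1 deletion. In the neutrophil and progenitor list Prtn3 (0.20), Cd34 (0.21) and Kit (0.27) had higher values, and the other tested genes had lower ones. The endothelial sum was very low, at 5.33 against 3.47 CPM, with Cdh5 and Kdr lower and Pecam1 (0.08) higher. Pf4 made up 97.6% of the wild type sum of the erythroid, mast cell and megakaryocyte list, and Itga2b of that list had a higher mean in the mutant (1.53 against 0.626 CPM). The part of these markers in the values of the cell cycle genes was not tested.

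**Figure D4:**
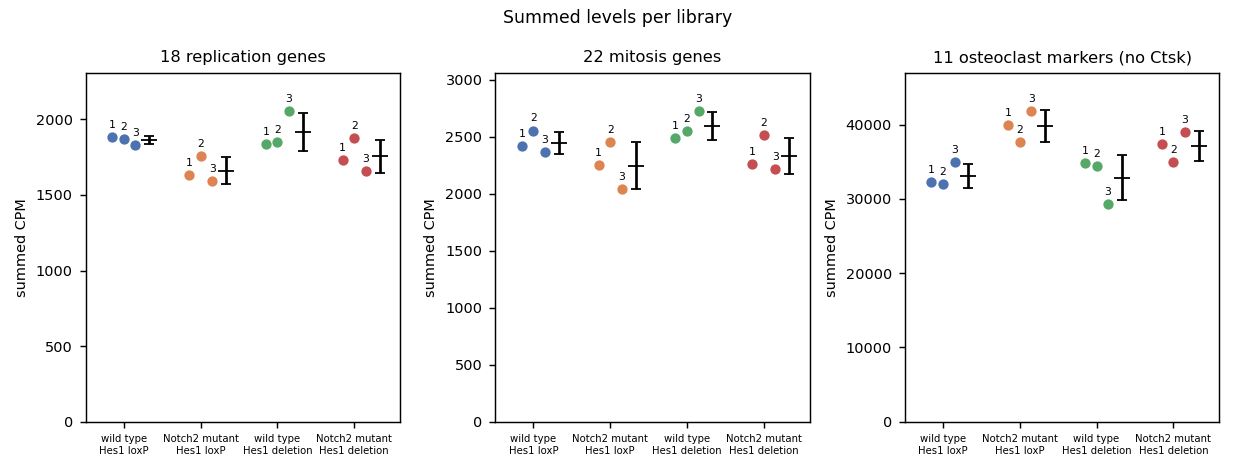
Summed CPM per library of the 18 replication genes, the 22 mitosis genes and the 11 osteoclast markers without Ctsk, by group. Numbered points are replicates and the black bars are the mean ± SD of 3 libraries. Replicate 3 of Notch2 mutant Hes1 loxP is lowest for both gene sets and highest for the markers, and replicate 3 of wild type Hes1 deletion is highest for both gene sets and lowest for the markers.

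The Hes1 deletion gave small positive medians in both Notch2 genotypes, with the larger values among mitosis genes of wild type cells. In wild type cultures, the log2 fold change (deletion against loxP) was negative for 6 of the 40 genes, all of replication, against 49.5% of all genes tested. The median was 0.02 for replication and 0.07 for mitosis genes. No gene of the 40 passed the test (edgeR), where 0.0373% of all genes did, and DESeq2 and limma-voom called 0. At an unadjusted p under 0.05 there were 3 of the 40, all of mitosis, against 5.93% of all genes. The deletion libraries were all above the loxP libraries for 7 genes (Ccna2, Aurka, Cdc20, Kif11, Kif20a, Nusap1 and Prc1), all of mitosis, against 7.28% of all genes, and all below for none, against 3.57%. The same deletion libraries are the wild type group of the Notch2 comparison with the Hes1 deletion. Ccna2, Kif11, Kif20a, Nusap1 and Prc1 did not overlap there either. Each Hes1 comparison shares its groups with the Notch2 comparisons, so these are not independent results.

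Cdc20, the activator of the anaphase-promoting complex, led these genes. It stood at 82.8, 84.1 and 83.5 CPM in wild type Hes1 loxP and at 96.7, 91.2 and 103 CPM in wild type Hes1 deletion libraries. The groups did not overlap, and the log2 fold change was 0.19 ± 0.05 (edgeR unadjusted p = 0.00103, adjusted p = 0.475). In the Notch2 mutant, Cdc20 stood at 79.0, 84.3 and 78.5 CPM with Hes1 loxP and 86.8, 92.1 and 85.4 CPM with the deletion, with a log2 fold change of 0.10 ± 0.05. It was the only one of the 40 genes whose deletion libraries were all higher in both Notch2 genotypes. The share of all genes tested that did so in both was not counted, so this is not shown to be unusual. Elovl1 lies antisense over part of the Cdc20 exons. Kif20a (from 109, 111 and 104 CPM with Hes1 loxP) and Prc1 (from 90.8, 95.005 and 90.7 CPM) each had 0.11 ± 0.05 in wild type cells.

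Replication genes in wild type cells stayed near 0. Cdc6 had -0.16 ± 0.09, the lowest of the 40, with overlapping groups. Ccne1, the other cyclin E, stood at 21.3, 21.6 and 23.5 CPM with Hes1 loxP and 21.9, 23.6 and 28.1 CPM with the deletion, and replicate 3 of the deletion group was the highest of these. Rrm1 stood at 225, 224 and 210.0 CPM and 222, 230.1 and 245 CPM in the same order. Their log2 fold changes were 0.13 ± 0.10 and 0.06 ± 0.05, and both had overlapping groups. Ccna2, which did not overlap in wild type cells, stood at 138, 138 and 130.1 CPM with Hes1 loxP and 142, 145 and 155 CPM with the deletion. Ccnb1 (88.6, 92.4 and 83.0 CPM against 91.4, 89.7 and 96.1 CPM) and Prim1 (17.6, 19.28 and 16.4 CPM against 16.3, 17.9 and 19.9 CPM) overlapped. Without wild type Hes1 deletion replicate 3, the replication median was -0.02 and 15 of the 40 genes were negative. The 95% intervals of the 40 genes lay between -0.36 and 0.34 (0.781-fold to 1.26-fold).

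In Notch2 mutant cultures the Hes1 deletion gave a median of 0.05 for replication and 0.03 for mitosis genes, with 9 of the 40 negative against 51.0% of all genes tested. No gene of the 40 passed the test (edgeR), where 0.0373% of all genes did. DESeq2 and limma-voom called 0, and 0 of the 40 had an unadjusted p under 0.05, against 4.76% of all genes. Cdc20 was the single gene with all deletion libraries higher, against 8.1% of all genes, and none had all of them lower, against 2.93%. Prim1, the catalytic subunit of primase, stood at 15.3, 16.4 and 15.2 CPM with Hes1 loxP and 16.3, 18.2 and 18.8 CPM with the deletion, with 0.15 ± 0.09. Rrm1 stood at 193, 216 and 188 CPM and 213, 228 and 206 CPM, with 0.09 ± 0.05. The groups overlapped for both, and for Cdc6 (0.14 ± 0.10). Ccna2, the cyclin of S phase and G2, stood at 123, 138 and 117 CPM with Hes1 loxP and 136, 142 and 128 CPM with the deletion (0.07 ± 0.06). Ccnb1, the cyclin of mitotic entry, stood at 82.1, 88.7 and 76.3 CPM and 84.7, 98.4 and 83.3 CPM (0.08 ± 0.06). Both had overlapping groups, as did Ccne1 (18.7, 21.2 and 19.1 CPM against 19.28, 25.1 and 21.4 CPM). The count of negative genes rested on single libraries: it was 21 without Notch2 mutant Hes1 deletion replicate 2, where the mitosis median was -0.01, and 16 without Notch2 mutant Hes1 loxP replicate 3. The 95% intervals lay between -0.39 and 0.35 (0.764-fold to 1.28-fold).

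**Figure D5:**
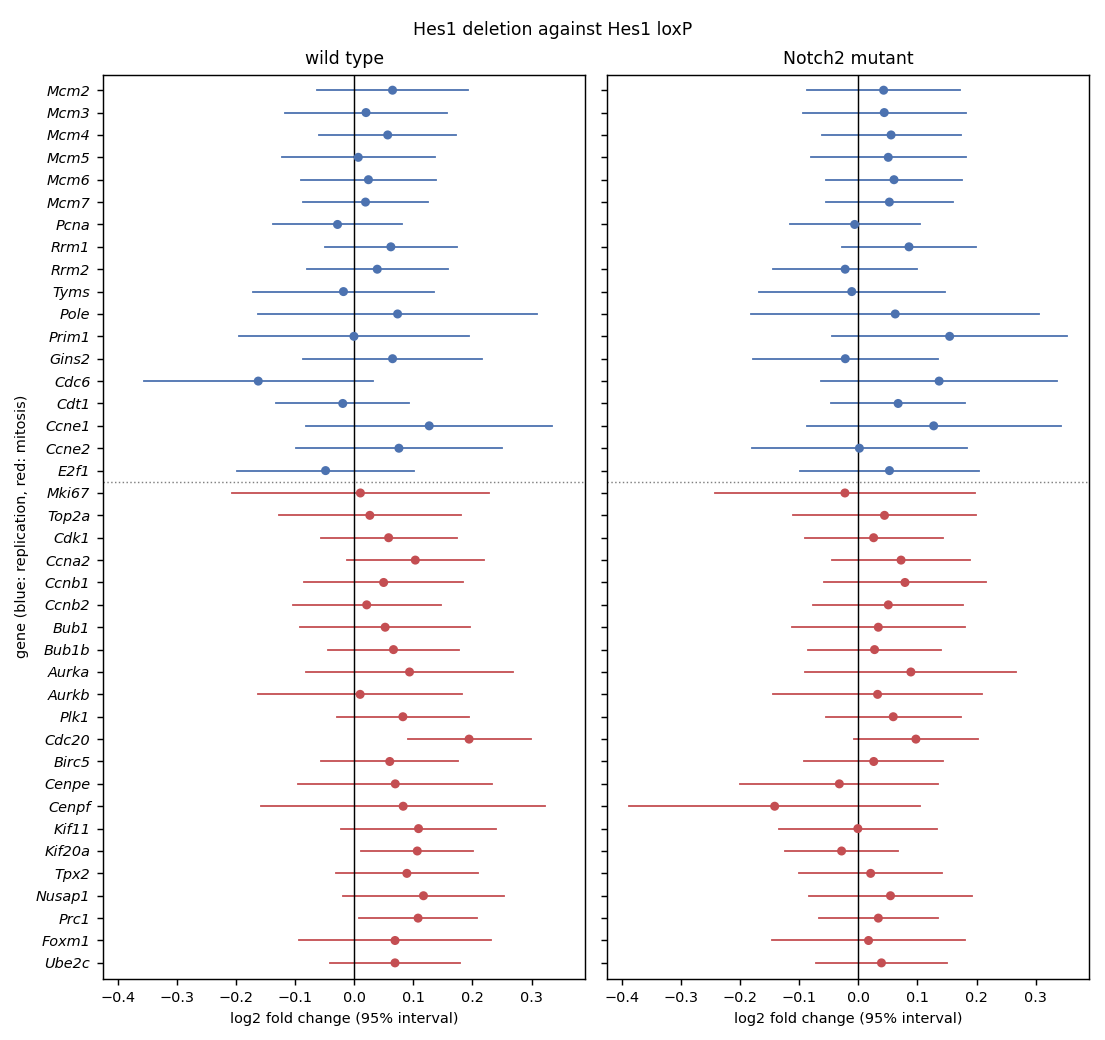
Log2 fold change of each gene with the Hes1 deletion against Hes1 loxP, in wild type (left) and Notch2 mutant cultures (right). Points are edgeR estimates and bars are 95% intervals, with replication genes in blue and mitosis genes in red. Cdc20 (0.19 in wild type cells) lies farthest right on the left panel, and most bars on both panels cross 0.

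Whether the Notch2 difference depended on the Hes1 allele was tested as the interaction of the genotypes, and no gene of the 40 passed (edgeR), nor did any of the 13403 genes tested (0% called). DESeq2 and limma-voom called 0 of the 40. At an unadjusted p under 0.05 there were 2 of the 40, against 3.78% of all genes, and 24 of the 40 interactions were negative, against 50.8%. Cdc6 had an interaction of 0.30 ± 0.13 (unadjusted p = 0.0367, adjusted p = 0.999, edgeR), from -0.34 with Hes1 loxP to -0.04 with the deletion. Kif20a had -0.14 ± 0.06 (unadjusted p = 0.0498, adjusted p = 0.999, edgeR), from -0.05 to -0.19. Prim1 (0.15 ± 0.13) and Cdt1 (0.09 ± 0.08) followed Cdc6, and Cenpf (-0.22 ± 0.16) and Cdc20 (-0.10 ± 0.07) followed Kif20a. The outermost bounds of the 95% intervals of the 40 interactions were -0.57 and 0.58. The median SE of the 40 interactions was 0.09. The median Notch2 log2 fold change of the 40 genes was -0.11 with Hes1 loxP and -0.12 with the deletion. The larger mitosis values with the Hes1 deletion than with Hes1 loxP are therefore not shown to differ between the Hes1 alleles.

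A wider list of 151 cell cycle genes that are not among the 40 was read from the same fit, of which 150 were named in the annotation and tested. With Hes1 loxP, 118 of the 150 had a negative log2 fold change in the Notch2 mutant, against 49.1% of all genes tested. In the same comparison 1 of the 150 passed the test, against 0.776% of all genes, and 27 had an unadjusted p under 0.05, against 14.2%. With the Hes1 deletion, 124 of the 150 were negative (49.4% of all genes), 0 passed (0.0149% of all genes, edgeR) and 26 had an unadjusted p under 0.05 (6.69% of all genes). The gene that passed was Dck, deoxycytidine kinase, which feeds deoxynucleosides into DNA synthesis. Dck stood at 78.1, 73.2 and 65.7 CPM in wild type and 57.0, 58.2 and 52.2 CPM in Notch2 mutant Hes1 loxP libraries, with no overlap. It fell by 0.35 ± 0.07 on the log2 scale (edgeR adjusted p = 0.0253). Between the Hes1 deletion groups Dck stood at 71.6, 73.5 and 86.6 CPM in wild type and 61.2, 62.9 and 61.9 CPM in Notch2 mutant libraries, again with no overlap, and the log2 fold change was -0.30 ± 0.07 (adjusted p = 0.325, edgeR). The call for Dck was lost without wild type Hes1 loxP replicate 1 or 2, or without any of the 3 Notch2 mutant Hes1 loxP libraries (adjusted p = 0.0514 to 0.130, edgeR). With the Hes1 deletion it passed when the count filter was omitted (adjusted p = 0.00119, edgeR). That setting called 138 of 25080 genes, against 2 of 13403 in the main fit.

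By function, the lists other than the kinase inhibitors had negative medians in both Notch2 comparisons. With Hes1 loxP, the median log2 fold change in the Notch2 mutant was -0.14 over 18 genes of origin licensing (16 negative) and -0.11 over 29 genes of polymerases, nucleotide supply and chromatin assembly (23 negative). It was -0.08 over 23 genes of G1 cyclins, RB and E2F (18 negative), -0.08 over 30 genes of mitotic entry and anaphase (24 negative) and -0.10 over 35 genes of kinetochore, spindle and cytokinesis (33 negative). With the Hes1 deletion the same lists had medians of -0.07, -0.08, -0.04, -0.07 and -0.12. After Dck, the smallest p with Hes1 loxP in these lists belonged to Uhrf1, a reader of DNA methylation at forks, with -0.26 (adjusted p = 0.0625, edgeR), and to Cdc25b, a phosphatase that activates Cdk1, with -0.21 (adjusted p = 0.0884, edgeR). Uhrf1 passed with DESeq2 (adjusted p = 0.0154), with only the compared groups in the edgeR fit (0.0176), without the count filter (0.000206) and without wild type Hes1 deletion replicate 3 (0.00553). In the same order these settings called 242, 119, 657 and 289 genes, against 104 in the main fit.

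The 15 inhibitors of cyclin-dependent kinases and p53 arrest genes had a median of 0.05 with Hes1 loxP, with 4 of 15 negative, and none passed the test (edgeR). Cdkn2b, the inhibitor p15 of Cdk4 and Cdk6, stood at 7.21, 6.89 and 7.17 CPM in wild type and 10.9, 9.55 and 10.3 CPM in Notch2 mutant Hes1 loxP libraries. The groups did not overlap, and the log2 fold change was 0.55 ± 0.13 (adjusted p = 0.0566, edgeR). It passed with DESeq2 (adjusted p = 0.0390) and under 5 changes to the edgeR fit: without the count filter, with only the compared groups, and without wild type Hes1 deletion replicate 3 or Notch2 mutant Hes1 deletion replicate 1 or 2 (adjusted p = 0.00484 to 0.0496). Genes called under these settings numbered 94 to 657, against 104 in the main fit. Between the Hes1 deletion groups Cdkn2b stood at 6.71, 8.03 and 6.83 CPM in wild type and 9.47, 6.68 and 8.29 CPM in Notch2 mutant libraries, which overlapped, and the log2 fold change was 0.19. The 15 genes then had a median of -0.02, with 9 negative. In the comparison of Hes1 alleles within wild type cells, the lead gene of the wider list was Myc, a transcription factor of growth, with 0.23 ± 0.06 (adjusted p = 0.382, edgeR, and 0.0156 without the count filter). Without that filter 135 of 25080 genes passed, against 5 of 13403 in the main fit.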

How the data were processed

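RNA from 12 cultures was sequenced as stranded mRNA libraries (paired reads of 75 bp), per the labels. The deposited values are raw counts per gene, made by the authors with HISAT2, SAMtools, Picard, HTSeq and DESeq2 on GRCm38, per the submitters' processing notes. No source used here gives versions, annotation release or strand setting. The 5 summary rows of each file, 15.8 to 19.0% of its total, were left out. IDs were named by GENCODE M21 (52133 of 55414).

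Counts were tested with edgeR 4.0.16 (R 4.3.3): quasi-likelihood F-test, 1 fit of all 12 libraries with 4 group means, scaled by TMM, filterByExpr (minimum count 10, minimum total 15), two-sided, Benjamini-Hochberg over 13403 genes, threshold 0.05. Log2 fold changes carry a standard error from the F statistic and a 95% interval. The fit was tested on simulated counts. CPM uses counts assigned to genes without TMM. Alternatives were DESeq2 1.42.0, limma-voom (limma 3.58.1), scaling by RLE, omitting the count filter, requiring a mean count of 50, only the groups compared, a replicate block and leaving out each library. Replicates differed beyond sampling noise (chi-square per gene 2.40 to 8.41); none was a duplicate. P-values measure the spread between these libraries, which may be partly technical.

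Library values are given for any member that passed a test, the 3 of each set with the smallest p per comparison, the highest and lowest of each set per kb, E2f1, Foxm1, Mki67 and Pcna. Members and lists were chosen with earlier results of these data known.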

Additional observations from a re-analysis of the deposited data

How the results depend on the processing

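Among single genes named, direction changed with Hes1 loxP for Foxm1 (-0.090 to 0.0057 over left-out libraries, positive without Notch2 mutant replicate 3) and Cenpf (-0.18 to 0.097, positive without wild type replicate 2 or Notch2 mutant replicate 3). With the Hes1 deletion it changed for Cdc6 (-0.11 to 0.052, positive without wild type or Notch2 mutant replicate 3), E2f1 (-0.11 to 0.0015) and Foxm1 (-0.17 to 0.0016), both positive without wild type replicate 3, Prim1 (-0.066 to 0.060, positive without wild type replicate 3 or Notch2 mutant replicate 1, and 0.0014 with limma-voom) and Cdt1 (-0.0080 to 0.074, negative without Notch2 mutant replicate 2). For the Hes1 deletion in wild type cells it changed for Prim1 (-0.067 to 0.072, positive without loxP replicate 2 or deletion replicate 1, 0.0015 at a mean count of at least 50 and 0.0013 with a replicate block). None of these passed the test. The cause was not tested. Under every alternative the set medians moved by less than the SD between replicates (0.077 for replication and 0.080 for mitosis, log2). Several medians are smaller than this SD, so the check cannot show that they keep their size or sign. Over left-out libraries they ranged from -0.19 to -0.12 (replication) and -0.12 to -0.04 (mitosis) for Notch2 with Hes1 loxP. For Notch2 with the Hes1 deletion they ranged from -0.17 to -0.07 and -0.17 to -0.09. For the Hes1 deletion they ranged from -0.02 to 0.06 and 0.05 to 0.10 in wild type, and 0.01 to 0.10 and -0.01 to 0.08 in Notch2 mutant cells. Without the count filter, genes called numbered 657 (Notch2, Hes1 loxP), 138 (Notch2, Hes1 deletion), 135 (Hes1 deletion, wild type), 110 (Hes1 deletion, Notch2 mutant) and 63 (interaction), and 3 of the 40 were then called with Hes1 loxP (Mcm5, Cdc6 and Top2a) and 1 with the Hes1 deletion (Cenpf). The cause was not tested. DESeq2 called 242 genes for Notch2 with Hes1 loxP. At a mean count of at least 50, 1 gene was called for Notch2 with the deletion and 2 for each Hes1 comparison. Limma-voom called 1 for Notch2 with the deletion and 3 for the Hes1 deletion in the Notch2 mutant. Leaving out single libraries gave 26 (without wild type Hes1 loxP replicate 1) to 289 (without wild type Hes1 deletion replicate 3), 0 to 5, 3 to 26, 3 to 6 and 0 to 12 genes in the 5 comparisons, and 0 to 1 of the 40 (Cdc6, adjusted p = 0.0446 with edgeR, without wild type Hes1 deletion replicate 3). Replicate numbers did not pair the libraries across all groups (correlation of same-numbered deviations -0.09 to 0.11, own number the best match in 16 of 36). Between the 2 Hes1 loxP groups, however, same-numbered deviations had correlations of 0.098, 0.107 and 0.077, and those of unlike numbers were all negative. A pairing of those libraries is therefore possible, and the main fit does not use it. A replicate block called 148 (104 in the main fit), 2, 5, 4 and 0 genes and none of the 40. The members with a negative value numbered 37 to 40 and 35 to 40 in the Notch2 comparisons over all alternatives. Library depth limits the lowest genes most.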
